A study of Arabidopsis thaliana with 6 samples.

Results

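The MYB, bHLH and WD40 regulators of anthocyanin synthesis were followed as 10 genes picked by locus identifier: the activator MYB genes MYB75, MYB90, MYB113 and MYB114, the bHLH genes TT8, GL3 and EGL3, the WD40 gene TTG1, and the repressor MYB genes MYBL2 and CPC. They are 10 of 21693 genes in the count table, and each of them had a row in it. RNA-seq was run on shoots of Arabidopsis thaliana seedlings at 8 days, from the phod1 mutant (3 libraries) and the wild type (WT, 3 libraries). Both genotypes grew on the same nutrient-rich 1/2 Murashige and Skoog agar with 1.0% sucrose and 1.1% agar, at 23 °C under a day of 16 h of light and a night of 8 h, and neither had a further treatment. The labels do not give the accession or the gene that phod1 affects, so no targeted gene could be checked. The design has 1 comparison, of phod1 shoots with WT shoots within a study that its title places in phosphate allocation by SHORT-ROOT and PHOSPHATE1.

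Anthocyanins are purple flavonoid pigments that accumulate in shoots under bright light, sugar, cold, or shortage of phosphate or nitrogen. Their late synthesis genes are switched on by a protein complex in which an R2R3-MYB, a bHLH and the WD40 protein TTG1 bind together, known as the MBW complex. The MYB partner sets which genes the complex acts on, and other MYBs with the same bHLH and WD40 partners direct trichome and root hair patterning. Small MYB proteins without an activation domain, such as MYBL2 and CPC, compete for the bHLH partner or recruit repression and hold the complex back.

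Libraries held 33183463 to 33932995 units of estimated count in phod1 and 34226295 to 54720319 units in WT, and 1 sequenced fragment was taken as 4 units from an excess of the value 4 over 3 and 5. The limit of detection was set at 3 fragments, or 12 units, which is 0.256 CPM in WT 2 and 0.404 CPM in WT 1, the lowest and the highest of the 6 libraries (CPM is the count scaled to a common library size, here with TMM factors). Such floors, like the counting intervals given later, hold counting error alone. The TMM factors were 1.10 to 1.17 in phod1 and 0.857 to 0.907 in WT, so the scaling lowered phod1 levels beside WT levels. No fit used library sizes without a scaling factor. The labels leave unsaid whether replicates were separate cultures, and each p-value therefore speaks of the spread among these 6 libraries, which may be technical. Of the shoot markers, 7 of 8 had a row and all 7 were above the floor in every library, with a summed level of 32600 to 37900 CPM in phod1 and 52100 to 68500 CPM in WT that was nearly all the light-harvesting gene LHCB1.3. Of the root markers, 11 of 12 had a row, their summed level was 1.16 to 1.36 CPM in phod1 and 1.39 to 1.90 CPM in WT, and the root hair genes EXPA7 and RSL4 were at 0 in every library.

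The phod1 shoots held far more transcript of the activators MYB75 and MYB90 and of the bHLH gene TT8 than WT shoots did, and far less of the repressor MYBL2. MYB75 stood 30.1-fold, MYB90 59.9-fold and TT8 9.66-fold higher in phod1 by the ratio of mean CPM, and MYBL2 stood 6.20-fold lower in phod1. GL3, EGL3, TTG1 and CPC differed by less than 1.6-fold. The quasi-likelihood test of edgeR, adjusted by Benjamini-Hochberg over all genes at a threshold of 0.05, called 4 of the 9 members tested, where it called 27.7% of all 10803 genes tested. Among the members 3 were called higher, 1 was called lower and 5 did not pass, where the calls over all genes were 14.6% higher and 13.0% lower. Over the 9 members tested the log2 fold change had a median of 0.64, against 0.01 over all genes tested. A log2 fold change at least as high as that of TT8 was fitted to 1.87% of all genes tested, and one at least as low as that of MYBL2 to 1.19%. MYB113 was filtered out for low counts. MYB90 and MYB114 passed that filter through their phod1 libraries, where they were high, and the members were chosen with earlier results of these data known. The counts and median of the members are therefore no fair comparison with those over all genes. In shoots taken whole, fewer cells with a transcript and less transcript per cell cannot be told apart.

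**Figure D1:**
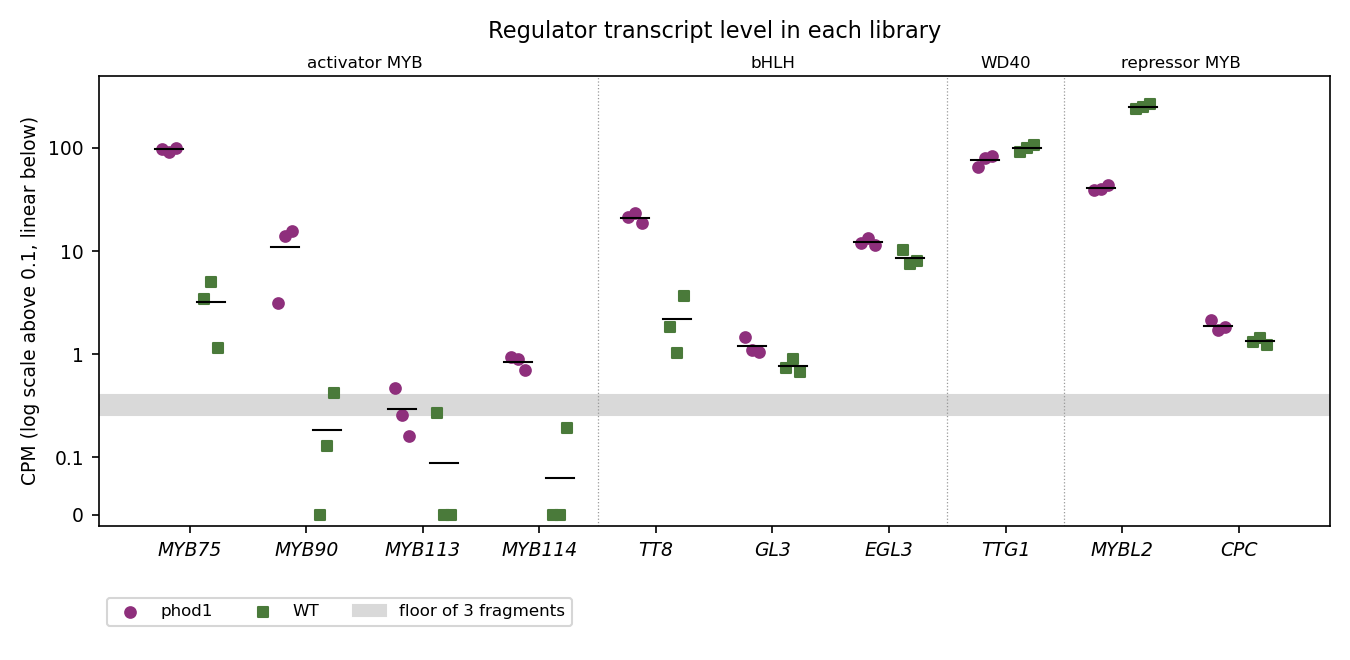
Transcript level of the 10 regulators in each library, in CPM on an axis that is logarithmic above 0.1 and linear below, with phod1 (circles) left of WT (squares), a line at each mean of 3 libraries, and a grey band for the floor of 3 fragments. MYB75 sat at 92.2 to 99.1 CPM in phod1 and 1.16 to 5.04 CPM in WT, and MYBL2 at 38.7 to 43.4 CPM in phod1 and 240.2 to 264.7 CPM in WT.

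Activator MYBs of full length bind DNA and carry the activation domain of the complex. MYB75 (AT1G56650, known as PAP1, on chromosome 1), the main anthocyanin MYB of seedlings, had 98.3, 92.2 and 99.1 CPM in phod1 1 to 3, against 3.43, 5.04 and 1.16 CPM in WT 1 to 3. The 3 phod1 libraries lay close together, the WT libraries were spread more widely on a log scale, and the genotypes did not overlap. The means were 96.5 ± 3.81 CPM in phod1 and 3.21 ± 1.95 CPM in WT (SD, n = 3 each). The fitted log2 fold change was 4.90, with SE 0.562 and adjusted p = 0.00251 by edgeR. The exact two-sided permutation test of CPM gave p = 0.1, the smallest that 3 against 3 libraries allow.

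MYB90 (AT1G66390, known as PAP2, on chromosome 1), a close relative of MYB75 with the same role, had 3.16, 13.9 and 15.7 CPM in phod1 1 to 3, against 0, 0.128 and 0.419 CPM in WT 1 to 3. One phod1 library stood well below the other two, and the highest WT library was still below it. The log2 fold change was 5.90 (SE 1.09, adjusted p = 0.012 by edgeR). The WT libraries together held 4.75 fragments, so the ratio of summed levels of 61.7 has a 95% counting interval of 25.6 to 199. The call was lost without WT 2 (log2 fold change 5.67, adjusted p = 0.0513), and without WT 3, the highest WT library, the log2 fold change was 7.12.

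MYB114 and MYB113, which lie in tandem with MYB90, were near the limit of detection. MYB114 (AT1G66380) had 0.940, 0.901 and 0.695 CPM in phod1 1 to 3, against 0, 0 and 0.193 CPM in WT 1 to 3, and the genotypes did not overlap. WT held 1.5 fragments in all, so the ratio of 15.2 has a 95% counting interval of 3.21 to 222, and the difference did not pass (adjusted p = 0.0606 by edgeR). Among the fits with 1 library left out, the difference passed only without WT 3, the WT library that held those fragments (adjusted p = 0.0133 by edgeR). That fit sets phod1 against WT libraries at 0. Without any other single library the adjusted p was 0.127 to 0.148, and with the replicate number as a block it was 0.149. MYB113 (AT1G66370) had 0.470, 0.258 and 0.160 CPM in phod1 1 to 3, against 0.269, 0 and 0 CPM in WT 1 to 3, at or under the floor in 5 of 6 libraries, so no fold is given.

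The 4 activator MYBs are close copies, which bears on how reads can be told apart. In the RefSeq annotation of TAIR10.1, MYB113, MYB114 and MYB90 follow each other on chromosome 1 with gaps of 2536 and 4987 bases. Their longest coding sequences match MYB75 at 84.3% of aligned bases in MYB90, 79.3% in MYB113 and 88.8% in MYB114, and MYB90 matches MYB114 at 91.4%. MYB114 has a short coding sequence of 420 bases, against 747 in MYB75, and whether its product keeps an activation domain was not examined. No stretch of 75 identical bases was shared by any pair of them. The sources used here do not give how reads that fit several genes were placed, so the low values of MYB113 and MYB114 beside abundant MYB75 are uncertain.

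The copies also differ in a site for small RNAs. The microRNA miR828 is known to cut the TAS4 precursor, whose small interfering RNA targets MYB75, MYB90 and MYB113, and to target MYB113 itself. The mature miR828 of the reference is shown with its seed, bases 2 to 8, in capitals. Below it stands the window of each coding sequence most like its full complement, at coding bases 310 to 331 in all 4 genes, with capitals at the bases that do not pair by the Watson-Crick rule.
miR828: uCUUGCUUaaaugaguauucca
MYB75: tggaaCactcatCtGagTaaga
MYB90: tggaaCacCcatCtGagTaaAa
MYB113: tggaaCactcatttGagTaaga
MYB114: tggaaCacCcatCtGagTaaga
MYB113 had 3 bases that do not pair by that rule, MYB75 4, MYB114 5 and MYB90 6. These counts include wobble pairs of G with U, which are the capital G and the capital T of each site. The row of the miR828 precursor gene MIR828 (AT4G27765) held 20, 12 and 0 units in phod1 1 to 3 and 0, 2 and 0 units in WT 1 to 3, at most 5 fragments in a library, so no comparison is made.

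The bHLH proteins bridge the MYB and TTG1. TT8 (AT4G09820, on chromosome 4), which activates late anthocyanin genes and its own transcription, had 21.2, 23.4 and 18.7 CPM in phod1 1 to 3, against 1.85, 1.02 and 3.67 CPM in WT 1 to 3. Every phod1 library exceeded every WT library. The means were 21.1 ± 2.37 CPM in phod1 and 2.18 ± 1.36 CPM in WT (SD, n = 3 each). The fitted log2 fold change was 3.28, with SE 0.480 and adjusted p = 0.00564 by edgeR. Without WT 3, the highest WT library, it was 3.89.

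The other bHLH genes differed far less. EGL3 (AT1G63650), which shares anthocyanin and trichome roles with GL3, had 11.9, 13.3 and 11.4 CPM in phod1 1 to 3, against 10.1, 7.55 and 7.99 CPM in WT 1 to 3. The values did not overlap, but the log2 fold change of 0.51 (SE 0.156) did not pass (adjusted p = 0.06 by edgeR). Among the fits with 1 library left out, it passed only without WT 1, the highest WT library (adjusted p = 0.0338 by edgeR). Without any other single library the adjusted p was 0.1 to 0.159. GL3 (AT5G41315), known best for trichome initiation, had 1.46, 1.11 and 1.04 CPM in phod1 1 to 3, against 0.741, 0.896 and 0.676 CPM in WT 1 to 3, also with no overlap and also not past the threshold (log2 fold change 0.64, SE 0.296, adjusted p = 0.174 by edgeR). Without strand information, reads of GL3 and of the antisense lncRNA gene that the annotation places over 36 of its bases cannot be told apart.

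Per kilobase of exon, the 3 bHLH genes together reached 15.6, 17.2 and 14.1 CPM in phod1 1 to 3 and 5.07, 3.73 and 5.13 CPM in WT 1 to 3. TT8 made up 67.5%, 68.1% and 66.2% of that sum in phod1 1 to 3, against 18.2%, 13.7% and 35.7% in WT 1 to 3. The largest bHLH share was thus that of TT8 in each phod1 library and that of EGL3 in each WT library.

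TTG1 (AT5G24520, on chromosome 5), the WD40 scaffold shared by all versions of the complex, had 65.3, 79.1 and 82.5 CPM in phod1 1 to 3, against 91.3, 100.7 and 107.2 CPM in WT 1 to 3. In TMM-scaled CPM all phod1 libraries were below all WT libraries, by a log2 fold change of -0.40 (SE 0.122) that did not pass (adjusted p = 0.06 by edgeR). Before scaling, the TTG1 row held 2500, 3072 and 3087 units in phod1 1 to 3 and 2713, 4720 and 3327 units in WT 1 to 3. Whether the difference holds on library sizes without TMM factors was not tested. The model before it on the same strand, AT5G24510, lies 197 bases away in TAIR10.1 and has no row in the count table. Whether the TTG1 row holds reads of that model was not tested.

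In TMM-scaled CPM the genotypes did not overlap in any of the 9 members tested, where 47.6% of all genes tested had no overlap. MYB113, which the filter on low counts removed, did overlap. MYB114 held 0, 0 and 6 units in WT 1 to 3 and passed the filter by its phod1 libraries. MYB90, with 0, 6 and 13 units there, needed its phod1 libraries too. The filter thus favoured a lack of overlap in MYB114 and MYB90, and the 9 members are not a fair count against 47.6%. TTG1 and MYBL2 were the members lower in phod1 with no overlap, a class of 22.9% of all genes tested. MYB75, MYB90, MYB114, TT8, GL3, EGL3 and CPC were the members higher in phod1 with no overlap, a class of 24.7% of all genes tested.

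Of the repressors, MYBL2 was called lower and CPC was not called. MYBL2 (AT1G71030, on chromosome 1), a single-repeat MYB that represses TT8 and the late anthocyanin genes through its bHLH partners, had 38.7, 39.6 and 43.4 CPM in phod1 1 to 3, against 240.2, 249.0 and 264.7 CPM in WT 1 to 3. The spread within either genotype was small beside the gap between them. The means were 40.5 ± 2.49 CPM in phod1 and 251.3 ± 12.4 CPM in WT (SD, n = 3 each). The fitted log2 fold change was -2.63, with SE 0.0872 and adjusted p = 0.000106 by edgeR. The next gene model on the same strand, AT1G71040, lies 192 bases away in TAIR10.1 and held 379, 3224 and 3291 units in phod1 1 to 3 against 2123, 3787 and 2644 units in WT 1 to 3. The phod1 library with the low value there did not stand apart in MYBL2.

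CPC (AT2G46410, on chromosome 2), a mobile single-repeat MYB that displaces R2R3-MYBs from the bHLH, had 2.17, 1.70 and 1.82 CPM in phod1 1 to 3, against 1.31, 1.45 and 1.22 CPM in WT 1 to 3. The values did not overlap, and the log2 fold change of 0.51 (SE 0.216) did not pass (adjusted p = 0.142 by edgeR).

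**Figure D2:**
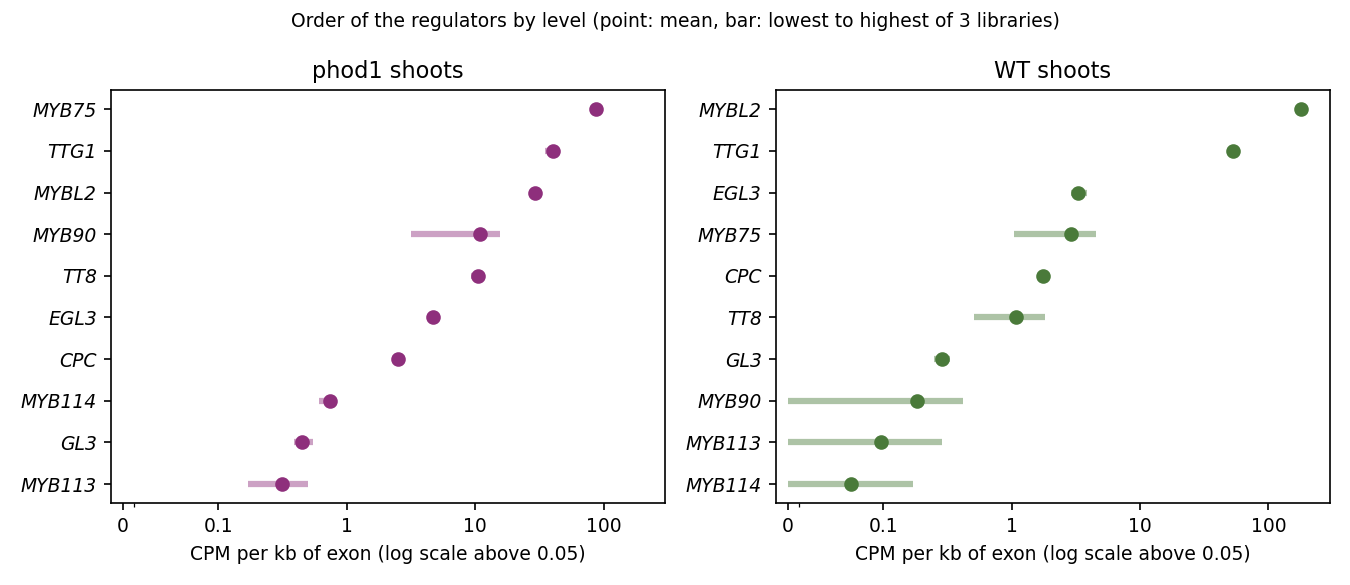
Order of the 10 regulators by mean level in phod1 (left) and WT (right), in CPM per kilobase of exon on an axis that is logarithmic above 0.05, with a point at the mean and a bar from the lowest to the highest of 3 libraries. MYB75 was at the top in phod1 with a mean of 87.0 and MYBL2 at the top in WT with a mean of 180.2.

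Levels per kilobase of exon put the regulators in a different order in each genotype. In phod1 the order began with MYB75 at 87.0 ± 3.44, TTG1 at 40.2 ± 4.85 and MYBL2 at 29.0 ± 1.79 CPM per kilobase (SD, n = 3), and the libraries of these 3 genes did not overlap one another. MYB90 at 10.9 and TT8 at 10.5 CPM per kilobase followed, and these 2 overlapped. EGL3 at 4.66, CPC at 2.48 and MYB114 at 0.739 CPM per kilobase were each apart from the next, whereas GL3 at 0.446 and MYB113 at 0.314 CPM per kilobase overlapped.

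In WT the order began with MYBL2 at 180.2 ± 8.90 and TTG1 at 53.1 ± 4.24 CPM per kilobase (SD, n = 3). The libraries of both were apart from those of every other member. EGL3 at 3.27, MYB75 at 2.89, CPC at 1.74 and TT8 at 1.09 CPM per kilobase followed, with overlap between each of these neighbours. TT8 was apart from GL3 at 0.285 CPM per kilobase, and GL3, MYB90 at 0.182, MYB113 at 0.0952 and MYB114 at 0.0563 CPM per kilobase overlapped one after the other. TTG1 was thus second in both genotypes.

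The level of the activator MYB75 was set beside that of the repressor MYBL2 within each library. Per kilobase of exon, MYB75 was 3.20, 2.93 and 2.88 times MYBL2 in phod1 1 to 3, against 0.0180, 0.0254 and 0.00551 times in WT 1 to 3. Turned round, MYBL2 exceeded MYB75 by 55.6, 39.3 and 181 times in WT 1 to 3. MYB75 was thus the more abundant of the pair in every phod1 library and MYBL2 in every WT library, and the ratio gave p = 0.1, the smallest possible here, in the exact permutation test (two-sided). MYB75 made up 95.2%, 84.8% and 84.5% of the summed activator MYB level per kilobase in phod1 1 to 3, against 91.6%, 97.3% and 64.1% in WT 1 to 3, so its share overlapped between genotypes (p = 0.9 by the same exact permutation test).

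**Figure D3:**
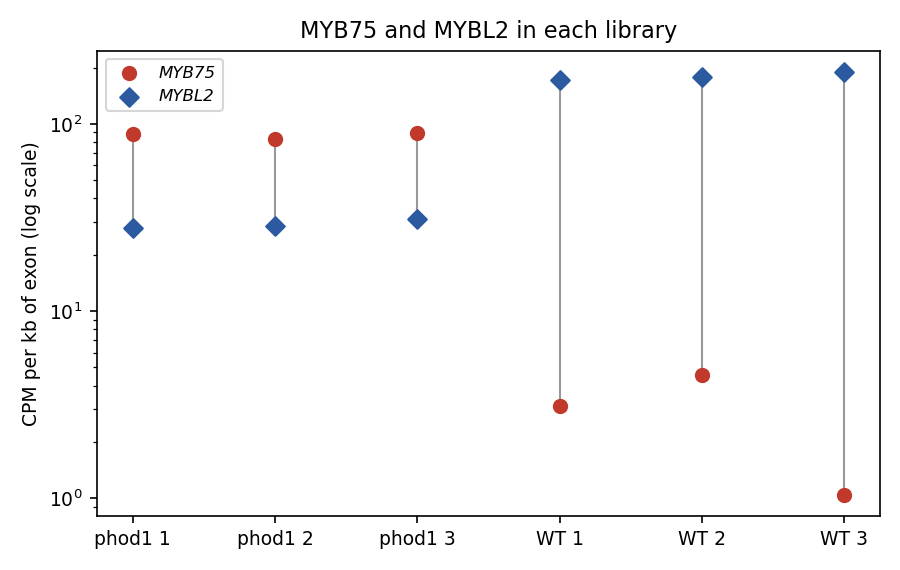
Levels of MYB75 (circles) and MYBL2 (diamonds) in each library, phod1 left of WT, in CPM per kilobase of exon on a logarithmic axis, with a line joining the genes of 1 library. MYB75 lay above MYBL2 in the 3 phod1 libraries and below it in the 3 WT libraries.

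The 250 bases before the annotated start of the 4 members that were called are shown as the sequence next to which a shared element would be looked for. They were read from the RefSeq copy of TAIR10.1 (the submitters name TAIR10), each 5′ to 3′ on the strand of its gene. Capitals mark the G-box CACGTG, a bHLH site, and would mark P1BS, GNATATNC, the site of the phosphate response factor PHR1, both searched on both strands.
MYB75, chr1:21235293-21235542, minus strand: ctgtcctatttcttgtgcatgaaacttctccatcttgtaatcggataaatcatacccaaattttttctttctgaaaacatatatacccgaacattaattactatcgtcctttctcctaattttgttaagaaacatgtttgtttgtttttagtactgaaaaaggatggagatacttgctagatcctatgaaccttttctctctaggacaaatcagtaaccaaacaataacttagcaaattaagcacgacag
MYB90, chr1:24763691-24763940, plus strand: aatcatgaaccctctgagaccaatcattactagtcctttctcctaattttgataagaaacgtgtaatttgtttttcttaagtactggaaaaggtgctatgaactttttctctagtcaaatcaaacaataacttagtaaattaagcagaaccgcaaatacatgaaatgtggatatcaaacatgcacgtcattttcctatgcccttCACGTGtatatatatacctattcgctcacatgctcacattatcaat
TT8, chr4:6181631-6181880, plus strand: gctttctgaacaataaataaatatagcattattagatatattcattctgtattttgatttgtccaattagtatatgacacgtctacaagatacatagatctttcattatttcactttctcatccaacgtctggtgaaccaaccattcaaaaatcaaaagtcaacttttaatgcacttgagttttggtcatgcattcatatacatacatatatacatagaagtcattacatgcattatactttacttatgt
MYBL2, chr1:26796533-26796782, minus strand: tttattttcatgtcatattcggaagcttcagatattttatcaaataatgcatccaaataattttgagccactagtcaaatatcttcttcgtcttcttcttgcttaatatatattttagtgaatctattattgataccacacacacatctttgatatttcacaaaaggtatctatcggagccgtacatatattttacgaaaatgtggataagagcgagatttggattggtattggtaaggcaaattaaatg
None of these 4 windows held P1BS, which 5.5% of the 27443 nuclear protein-coding windows of this length held. Among the other members TTG1 held 1 match. The G-box was in the windows of MYB90, from base 46 to base 41 before the start, and of MYB114, and 6.5% of all windows held it. The looser E-box CANNTG, which takes in the G-box, was found in MYB90, TT8, MYB113, MYB114, GL3 and TTG1 and in 55.3% of all windows. The MYB-recognizing element ANCNNCC was found in MYB75, TT8, MYBL2, MYB113, MYB114, GL3 and CPC and in 48.8% of all windows. A match is a description of the letters only.

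The anthocyanin and flavonoid enzyme genes were higher in phod1, as MYB75, MYB90 and TT8 were. Of the 11 late anthocyanin genes listed, 10 had a row and were tested, and all 10 were called higher, with a median log2 fold change of 3.62. Among all genes tested 14.6% were called higher and 13.0% lower, with a median of 0.01, which is the background for each list below. UGT79B1, which adds xylose to the anthocyanin, averaged 152.5 ± 7.93 CPM in phod1 and 5.63 ± 1.02 CPM in WT (SD, n = 3 each; log2 fold change 4.76, SE 0.167, adjusted p = 0.000106 by edgeR). The 5-O-glucosyltransferase gene UGT75C1 (log2 fold change 3.68), the acyltransferase gene AT3AT1 (3.19) and the vacuolar carrier gene GSTF12 (4.14) were called as well, and the smallest difference in the list was that of the sinapoyltransferase gene SCPL10 (0.65), whose call was lost with the replicate number as a block (adjusted p = 0.0554). All 6 early flavonoid enzyme genes were called higher with a median of 2.35, among them CHS (3.20), CHI (2.12), F3H (3.26) and the 3′-hydroxylase gene of flavonoids at AT5G07990 (2.52). The call of FLS1, of flavonol synthesis, was lost without WT 3 (adjusted p = 0.0502). Overlapping models in TAIR10.1 touch GSTF12 (108 bases), UGT75C1 (230 and 217 bases), AT3AT1 (108 bases), SCPL10 (21 bases), CHS (2 bases) and F3H (1588 bases, an antisense lncRNA), and reads there cannot be told apart without strand information. Both lists were written with earlier results of these libraries known, so their counts are no independent evidence of direction.

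The MYBs of the early flavonol branch, which act without a bHLH partner, were higher too, with 3 of 3 called, against 14.6% of all genes tested. MYB111 averaged 16.5 ± 0.684 CPM in phod1 and 4.10 ± 0.437 CPM in WT (SD, n = 3 each; log2 fold change 2.01, SE 0.130, adjusted p = 0.000404 by edgeR). MYB11, whose model shares 495 bases with the opposite-strand model AT3G62615, had a log2 fold change of 3.95 with SE 0.971 (adjusted p = 0.0308 by edgeR). That of MYB12 was 1.46 with SE 0.376 (adjusted p = 0.0359 by edgeR). The call of MYB11 was lost without any single one of WT 1, WT 3, phod1 1, phod1 2 and phod1 3 (adjusted p of 0.0586 to 0.0809), and that of MYB12 without any single one of WT 2, WT 3, phod1 1, phod1 2 and phod1 3 (0.053 to 0.108). With the replicate number as a block, neither passed (0.098 for MYB11, 0.0743 for MYB12).

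Proanthocyanidin genes of the seed coat, which a TT2 version of the complex controls, were mostly at the limit. Of 5 with a row, 2 were tested, and the proton pump gene AHA10 was called higher (2.92 ± 0.696 CPM in phod1 and 0.948 ± 0.417 CPM in WT, SD, n = 3 each; log2 fold change 1.63, adjusted p = 0.0274 by edgeR), a call lost without any single one of phod1 1, phod1 2, WT 1 and WT 2 (adjusted p of 0.0696 to 0.0851) and with the replicate number as a block (0.106). TT15 did not pass (log2 fold change -0.00, adjusted p = 0.995). BAN, TT12 and TT10 were under the floor, and TT2 itself was at 0 in every library.

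Other partners of the same bHLH and WD40 proteins were not among the genes called higher. Of the 9 listed, 6 were tested, 0 were called higher by edgeR, 2 were called lower and 4 did not pass, with a median log2 fold change of -0.62. At an unadjusted p under 0.05 there were 1 higher and 4 lower, as there were by DESeq2. Those called lower were LWD1, a WD40 relative of TTG1 of the circadian clock (43.8 ± 1.42 CPM in phod1 and 61.3 ± 3.33 CPM in WT, log2 fold change -0.48, adjusted p = 0.0103 by edgeR), and LWD2 (log2 fold change -0.75, adjusted p = 0.00133). LWD2 overlaps the next gene model, AT3G26650, by 13 bases in TAIR10.1, and that model has no row in the count table. At 1950 CPM in phod1 and 3287 CPM in WT, the row of LWD2 may hold reads of AT3G26650. The call of LWD1 was lost with the replicate number as a block (adjusted p = 0.0579). The trichome MYB genes GL1 (0.973 ± 0.376 CPM in phod1 and 2.38 ± 0.821 CPM in WT, log2 fold change -1.28, adjusted p = 0.0775) and MYB23 (log2 fold change -0.81, adjusted p = 0.0611) and the root MYB gene WER (log2 fold change 1.13, adjusted p = 0.0627) did not pass by edgeR but did by DESeq2 (adjusted p = 0.0286, 0.0169 and 0.0185), and the bHLH gene MYC1 stood at 15.6 ± 3.75 CPM in phod1 and 15.4 ± 3.995 CPM in WT. MYB5 was at 0 in every library within an opposite-strand model that covers all of its 1792 bases, and MYB82 was not tested.

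Relatives of the 2 repressors were mixed. Of 5 tested single-repeat MYBs like CPC, TRY was called lower (1.03 ± 0.0146 CPM in phod1 and 2.26 ± 0.288 CPM in WT, SD, n = 3 each; log2 fold change -1.13, adjusted p = 0.0121 by edgeR), as was TCL1 (log2 fold change -1.30, adjusted p = 0.0203), and ETC1, ETC2 and CPL3 did not pass by edgeR. DESeq2 called CPL3 higher (log2 fold change 0.90, adjusted p = 0.0356). The call of TCL1 was lost without any single one of phod1 1, phod1 2, WT 1 and WT 2 (adjusted p of 0.0583 to 0.0727), and with the replicate number as a block neither TRY (0.0715) nor TCL1 (0.104) passed. Of the 4 subgroup 4 repressor MYBs, which act on phenylpropanoid genes, 0 were called by edgeR, where 0 were higher and 1 lower at an unadjusted p under 0.05, as by DESeq2. The one nearest the threshold, MYB3, averaged 12.7 ± 12.6 CPM in phod1 and 69.4 ± 6.28 CPM in WT (log2 fold change -2.45, SE 0.721, adjusted p = 0.0541), and DESeq2 called it (adjusted p = 0.00126). Without phod1 2, which stood above the other two phod1 libraries, it passed by edgeR (log2 fold change -3.67, adjusted p = 0.00197). MYB3 was picked out after its values were seen.

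Epidermal targets of the trichome version of the complex gave 0 calls of 3 by edgeR, 0 at an unadjusted p under 0.05 and 0 by DESeq2, with log2 fold changes of 0.32 for GL2, 0.14 for TTG2 and -0.23 for SIM. The 4 trichome markers, GL1, MYB23, GL2 and TTG2, are all in these lists of partners and targets, and had a summed level of 460.0 to 642 CPM in phod1 and 186 to 642 CPM in WT, nearly all GL2, whose model overlaps its neighbour AT1G79850 by 198 bases. That neighbour held 10602, 1942 and 8835 units in phod1 1 to 3 and 22772, 17894 and 9517 units in WT 1 to 3. The GL2 row held 17312, 24125 and 20740 units in phod1 1 to 3 and 4844, 29225 and 16129 units in WT 1 to 3. Whether reads were divided between these rows was not tested, so the level and fold change of GL2 are uncertain. The part of the trichome markers in the results was not tested.

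**Figure D4:**
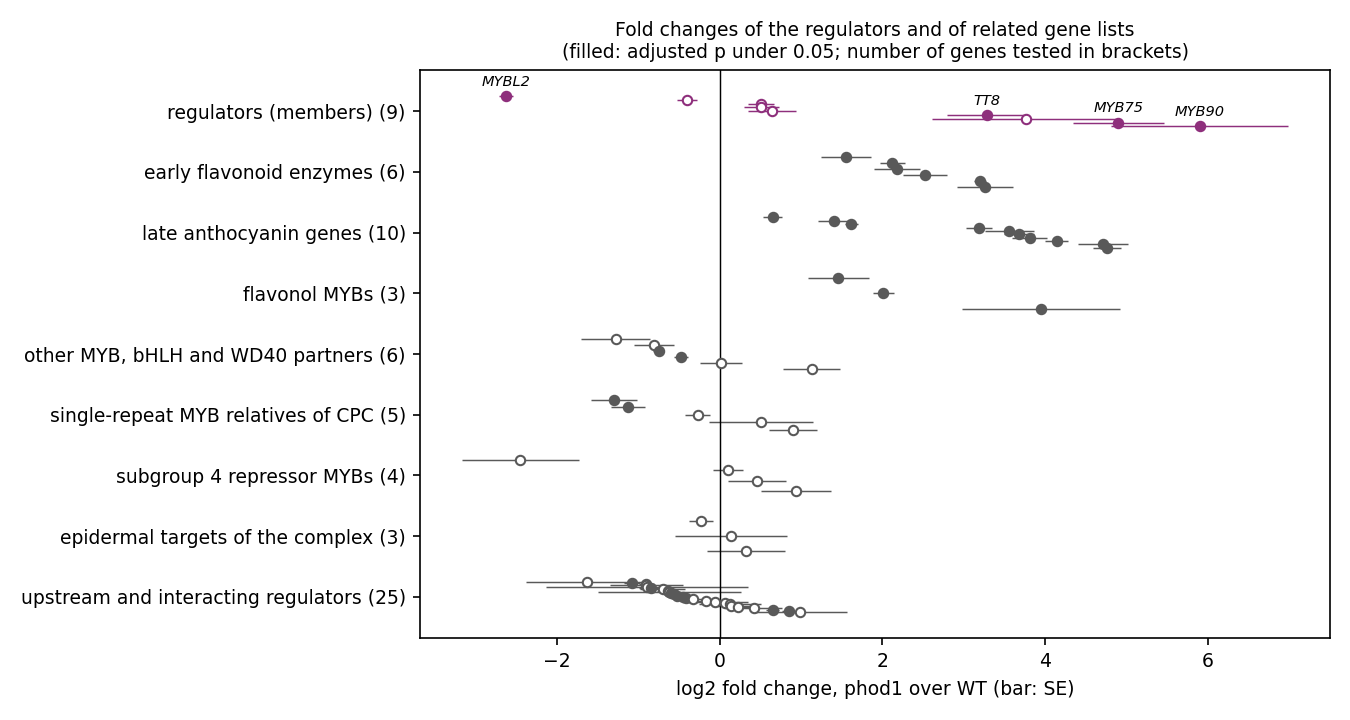
Log2 fold change of phod1 over WT with its SE for the 9 regulators tested and for the tested genes of 8 related lists, each point a gene, filled where the adjusted p was under 0.05. MYB75, MYB90 and TT8 lie between 3.28 and 5.90 and MYBL2 at -2.63, and the late anthocyanin genes lie between 0.65 and 4.76.

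Genes known to act on the complex from outside had fitted log2 fold changes between -1.63 and 0.99. Of 25 tested upstream and interacting regulators, 2 were called higher, 9 lower and 14 did not pass, with a median log2 fold change of -0.45. For comparison, 14.6% of all 10803 genes tested were called higher and 13.0% lower. At an unadjusted p under 0.05, 2206 of all genes tested were higher and 2041 lower. Of the 14 of these regulators that restrain anthocyanin synthesis, 5 were called lower by edgeR and 0 higher, with 0 higher also at an unadjusted p under 0.05 and by DESeq2. Among them were LBD38 (28.3 ± 2.02 CPM in phod1 and 59.9 ± 3.02 CPM in WT, SD, n = 3 each; log2 fold change -1.08, SE 0.0974, adjusted p = 0.0011 by edgeR) and LBD39 (log2 fold change -0.90, adjusted p = 0.00198), nitrate-induced repressors of MYB75 and MYB90. The others were SPL9 (-0.60), which disrupts the complex, SPA1 (-0.56), part of the ubiquitin ligase that degrades MYB75, and BBX24 (-0.45), which shares 344 bases with an opposite-strand model and whose call was lost without any single one of the libraries but WT 1 (adjusted p of 0.0941 to 0.109) and with the replicate number as a block (0.0999).

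Of the 11 tested genes that promote anthocyanin synthesis, 2 were called higher and 4 lower, against 14.6% higher and 13.0% lower of all genes tested. MPK4, a kinase that stabilizes MYB75 by phosphorylation, averaged 82.7 ± 1.78 CPM in phod1 and 52.8 ± 1.93 CPM in WT (SD, n = 3 each; log2 fold change 0.65, SE 0.0754, adjusted p = 0.00265 by edgeR). The sucrose carrier gene SUC1 was also called higher (log2 fold change 0.85, adjusted p = 0.00136). MPK4 shares 929 and 100 bases with 2 opposite-strand models. BBX22 (-0.84), PHR1 (-0.64), RGA (-0.53) and GAI (-0.41) were called lower on the log2 scale, and PHR1 shares 59 bases with an opposite-strand model. The calls of PHR1 and GAI were each lost without any single one of phod1 1, phod1 2, WT 1 and WT 2, and that of GAI also without phod1 3 (adjusted p of 0.0533 to 0.0611 for PHR1 and 0.0565 to 0.0785 for GAI), and with the replicate number as a block (0.0866 and 0.0807). The light regulator gene HY5 stood at 4.49 ± 1.31 CPM in phod1 and 3.37 ± 1.16 CPM in WT and did not pass.

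Among the shoot markers, 1 was called higher and 1 lower. STM, of the shoot meristem, averaged 7.36 ± 1.28 CPM in phod1 and 2.57 ± 0.176 CPM in WT (SD, n = 3 each; log2 fold change 1.52, SE 0.181, adjusted p = 0.0029 by edgeR). LHCB1.3 was lower (log2 fold change -0.83, adjusted p = 0.00761), a call lost with the replicate number as a block (0.0522), and GLK1, AS1, FIL, FAMA and CER1 did not pass by edgeR. DESeq2 called FAMA higher (log2 fold change 1.31, adjusted p = 0.00852) and CER1 lower (-1.21, 0.0169). By edgeR, FAMA passed without WT 2 (adjusted p = 0.00211). CER1 passed without WT 1 (0.0458) and with the replicate number as a block (0.0159). The part of these differences in the regulators' values was not tested.

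The genes outside the lists whose log2 CPM profile over the 6 libraries, centred on its mean, was closest to that of MYB75 were GSTF7, SRG3 and NUDT24, with root mean square distances of 0.309, 0.344 and 0.355 on the log2 scale. GSTF7, a glutathione transferase gene, averaged 53.1 ± 1.72 CPM in phod1 and 1.29 ± 0.467 CPM in WT. SRG3 (AT3G02040), of the glycerophosphodiester phosphodiesterase family, averaged 313 ± 14.8 CPM in phod1 and 15.7 ± 8.63 CPM in WT (SD, n = 3 each). The closest to TT8 were CNGC3, RLK1 and NAS4, at 0.252, 0.262 and 0.315. With 2 genotypes of 3 libraries, this likeness rests mainly on the difference between genotypes.

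The authors' deposited table, which lists genes with an adjusted p of at most 0.04998, holds 7 of the 10 members. It holds 3902 genes in all, where the count table has 21693. In the authors' deposited table, MYB75 (log2 fold change 4.90, adjusted p = 1.53e-21), MYB90 (5.90, 7.39e-08), MYB114 (3.75, 0.0209), TT8 (3.27, 8.6e-11) and EGL3 (0.51, 0.0212) are higher in phod1, and TTG1 (-0.41, 0.0223) and MYBL2 (-2.64, 1.18e-154) are lower. GL3, CPC and MYB113 are not in the authors' deposited table. DESeq2, run here on the same counts, also called 7 of the 10 members, where it called 31.3% of the 12415 genes it could adjust. They were the 4 that edgeR called and MYB114 (adjusted p = 0.0212), EGL3 (adjusted p = 0.0215) and TTG1 (adjusted p = 0.0227).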

How the data were processed

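RNA-seq libraries of shoots, 3 of phod1 and 3 of WT, were grouped by sample title. The deposited count table holds estimated counts for each gene in whole numbers, which the authors had not normalized. The submitters' processing notes list CASAVA 1.4, STAR, StringTie and TAIR10 without their roles. The sources used here do not give the annotation, the counting command, its strand setting or the handling of reads that fit several genes. A count of 4 was commoner (1703 times) than one of 3 (562 times) or 5 (832 times), and 1 fragment was therefore taken as 4 units. The authors' own comparison was deposited as well, with log2 fold changes, their SE and adjusted p-values, per the file headers.

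Rounding changed no value. Of 21693 genes, 10803 passed filterByExpr (minimum count 10, minimum total 15). The test was the quasi-likelihood F test of edgeR 4.0.16 in R 4.3.3 (glmQLFit, glmQLFTest), two-sided, with TMM scaling and a single genotype term. P-values were adjusted by Benjamini-Hochberg over the genes tested and called under 0.05. The SE of a log2 fold change was taken as the fold change over the root of its F value, and the SD is that of 3 libraries. Levels per kilobase use the union of exons in the RefSeq annotation of TAIR10.1, in which 20318 of the table's identifiers and all 10 members have a gene. Libraries held 33183463 to 54720319 units, and with their TMM factors the floor of 3 fragments was 0.256 to 0.404 CPM. Alternatives were DESeq2 1.42.0, its size factors in edgeR, no filter, counts divided by 4, the replicate number as a block and leaving out each library. The fit was also run on simulated counts, with genes of low level left out. Every changed gene it called there had the right sign, which the run required in order to finish. That outcome is therefore no measure of error, and it does not cover genes near the floor. Of same-numbered libraries, deviations from the genotype means correlated at -0.0107, -0.0592 and 0.00139. These values gave no sign of pairing by number, but they cannot show that same-numbered samples were grown or prepared apart.

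The members and lists were chosen with earlier results of these data known. All members are named, and of each other list up to 4 called genes with the smallest p, with any count of 5 or fewer in full. FLS1, SCPL10 and listed genes named though they did not pass were picked out after their values were seen, except the tested partners, which the rule names. For profile likeness, log2 of CPM plus 1 was used. Coding identity came from global alignment of the longest coding sequences with Biopython 1.88. No 2 libraries held identical values.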

Additional observations from a re-analysis of the deposited data

How the results depend on the processing

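The calls of MYB75, TT8 and MYBL2 held under all 11 alternatives, with log2 fold changes of 4.51 to 5.40, 2.94 to 3.89 and -2.68 to -2.59. DESeq2 called 7 members, 5 higher and 2 lower, adding MYB114 (adjusted p = 0.0212), EGL3 (0.0215) and TTG1 (0.0227), where edgeR called 4, 3 higher and 1 lower; the cause was not tested. Leaving out 1 library gave 3 to 5 members called, 2 to 4 higher and 1 lower, with MYB90 lost without WT 2 (log2 fold change 5.67). The log2 fold change of MYB90 ranged from 5.38 to 7.12 over the 11 alternatives. Over all genes the count was 2988, or 1581 higher and 1407 lower, and 2128 to 2531 with 1 library left out. In the labels, the same-numbered libraries share only a number. With the replicate number as a block 1500 genes were called, 788 higher and 712 lower, while the members called stayed at 4. No number had its highest correlation of deviations with its own partner. GL3 and CPC passed under none of the 11 alternatives (adjusted p from 0.181 to 0.417 and from 0.149 to 0.348). Of 198 counts of called genes per related list and alternative, 175 were within 1.5 times the reported count and 23 were not. The 175 include reported counts of 0 that stayed at 0, as both counts of the epidermal targets did under every alternative. They are therefore no measure of how steady the calls were. Depth limits MYB113, MYB114 and MYB90 in WT, which stood at or under the floor of 3 fragments in most or all libraries.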
